A study of Mus musculus with 12 samples.

Results

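The insulin-like growth factor (IGF) genes of the tibialis anterior, a hindlimb muscle, were compared between dystrophic and control mice. The 10 genes are the ligand gene Igf1, the receptor genes Igf1r and Igf2r, 6 genes of IGF binding proteins (Igfbp2 to Igfbp7) and Igf2bp2. They were picked by symbol from the 24421 entries of the count table, and all 10 were found there. The controls were 6 C57Bl/6 mice (WT) and the dystrophic animals were 6 mdx/mTR mice. Every mouse was a male aged 4 months, and no treatment is named for either group. The mdx allele disrupts the dystrophin gene Dmd, mTR denotes the mouse telomerase RNA gene Terc, and WT carries neither change as far as the labels say. With no group that carries a single one of these alleles, an effect of mdx and an effect of mTR cannot be told apart. The labels do not say whether the mice were littermates, so p-values measure the spread between these animals.

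IGF1 is a growth factor that muscle fibres and cells of the muscle's connective tissue make in addition to the liver, and it drives fibre growth and the proliferation and differentiation of myogenic precursors. It acts through the receptor tyrosine kinase IGF1R, while IGF2R binds IGF2, removes it from the surroundings and also carries enzymes tagged with mannose 6-phosphate to lysosomes. IGF binding proteins hold IGFs in the tissue and in blood and can block or prolong their action, and IGF2BP2 is not a carrier of the peptide but an RNA-binding protein named for its binding to the Igf2 messenger.

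Library totals ran from 35136327 to 60330410 counts. The labelled tissue was borne out by 6 markers of mature fast fibres, whose summed level was 97207 to 152835 CPM (counts per 1e6, here always scaled by the trimmed mean of M-values, TMM) in the 12 mice. Dmd was 228 to 244 CPM in WT and 35.2 to 56.4 CPM in mdx/mTR, and Terc had 2 counts in all 12 libraries together. Of 13937 genes tested, 6736 had an adjusted p under 0.05 in edgeR's quasi-likelihood test (48.3%), 3479 higher and 3257 lower in mdx/mTR.

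The sequences just upstream of 3 binding protein genes are shown because these genes had the clearest contrast among the 10: Igfbp3 and Igfbp4 rose in mdx/mTR without overlap of the groups, while Igfbp5, the most abundant, had nearly equal means. Each run holds 250 bases before and 50 bases after the transcription start of RefSeq (GRCm38.p6), written 5′ to 3′ on the gene's strand. Capitals mark E-boxes (CANNTG, the motif class bound by myogenic and other basic helix-loop-helix factors) and TATA-type letters (TATANA, or TNTATA on the other strand).
Igfbp3, chr11:7213874-7214173, minus strand: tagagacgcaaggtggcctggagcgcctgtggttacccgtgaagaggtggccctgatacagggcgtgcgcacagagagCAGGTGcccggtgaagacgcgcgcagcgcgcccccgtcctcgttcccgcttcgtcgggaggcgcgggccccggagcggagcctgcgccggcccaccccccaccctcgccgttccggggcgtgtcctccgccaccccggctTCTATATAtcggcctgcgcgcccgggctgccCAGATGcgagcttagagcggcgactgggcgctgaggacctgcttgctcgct
Igfbp4, chr11:99040994-99041293, plus strand: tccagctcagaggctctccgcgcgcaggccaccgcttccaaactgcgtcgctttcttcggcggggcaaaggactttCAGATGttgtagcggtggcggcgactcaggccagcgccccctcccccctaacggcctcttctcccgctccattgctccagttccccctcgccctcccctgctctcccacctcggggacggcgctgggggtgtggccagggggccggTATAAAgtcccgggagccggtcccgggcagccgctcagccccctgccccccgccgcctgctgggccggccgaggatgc
Igfbp5, chr1:72874816-72875115, minus strand: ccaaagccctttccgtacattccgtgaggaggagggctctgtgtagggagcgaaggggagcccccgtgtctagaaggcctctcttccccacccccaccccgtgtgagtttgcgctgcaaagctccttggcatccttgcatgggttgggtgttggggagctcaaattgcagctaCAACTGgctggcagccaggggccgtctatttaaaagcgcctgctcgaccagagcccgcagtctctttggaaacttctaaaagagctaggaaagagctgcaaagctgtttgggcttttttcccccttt
In Igfbp3 the TATA-type run comprises 2 overlapping matches beginning at bases -32 and -30, and in Igfbp4 a single match begins at base -28, where base -1 is the last before the start. The Igfbp5 window holds no match to these letters. E-boxes begin at bases -172 and -1 in Igfbp3, at base -174 in Igfbp4 and at base -77 in Igfbp5. Among all 32851 RefSeq windows of this length, 72.3% hold at least 1 E-box and 24.7% at least 1 TATA-type match, so an E-box alone sets none of the 3 apart. The ratio of observed to expected CpG was 0.961 in Igfbp3, 0.724 in Igfbp4 and 0.420 in Igfbp5, against a median of 0.384 over all windows. A window was found for all 10 genes, and those of Igf1r, Igfbp7 and Igf2bp2 hold neither motif.

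In mdx/mTR, 5 of the 9 members that could be tested were higher and 0 were lower, with an adjusted p under 0.05 in edgeR. Over all genes tested, 25.0% were higher and 23.4% were lower by the same rule. The genes that rose were Igfbp3, Igfbp4, Igfbp6, Igfbp7 and Igf2bp2, by 1.18-fold to 1.86-fold. Igf1r, Igf2r and Igfbp5 had log2 fold changes between 0.003 and 0.05, and Igf1 lay just outside the threshold. At an unadjusted p under 0.05, edgeR gave 6 of 9 higher and 0 lower, where 28.4% of all genes were higher and 26.3% lower. DESeq2 gave 7 of 10 higher and 0 lower (22.5% and 20.5% of 19268 genes, with no filter on low counts), and limma-voom 6 of 9 higher and 0 lower (27.6% and 26.5% of 13937). The DESeq2 count includes Igfbp2, which was too low for the edgeR fit and had most of its counts in mdx/mTR, so it adds no support. The median log2 fold change of the 9 was 0.49, beside 0.01 over all genes tested. The groups did not overlap for 2 of the 9, Igfbp3 and Igfbp4, where 12.6% of all genes tested had every mdx/mTR mouse above every WT mouse (25.2% in either direction).

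**Figure D1:**
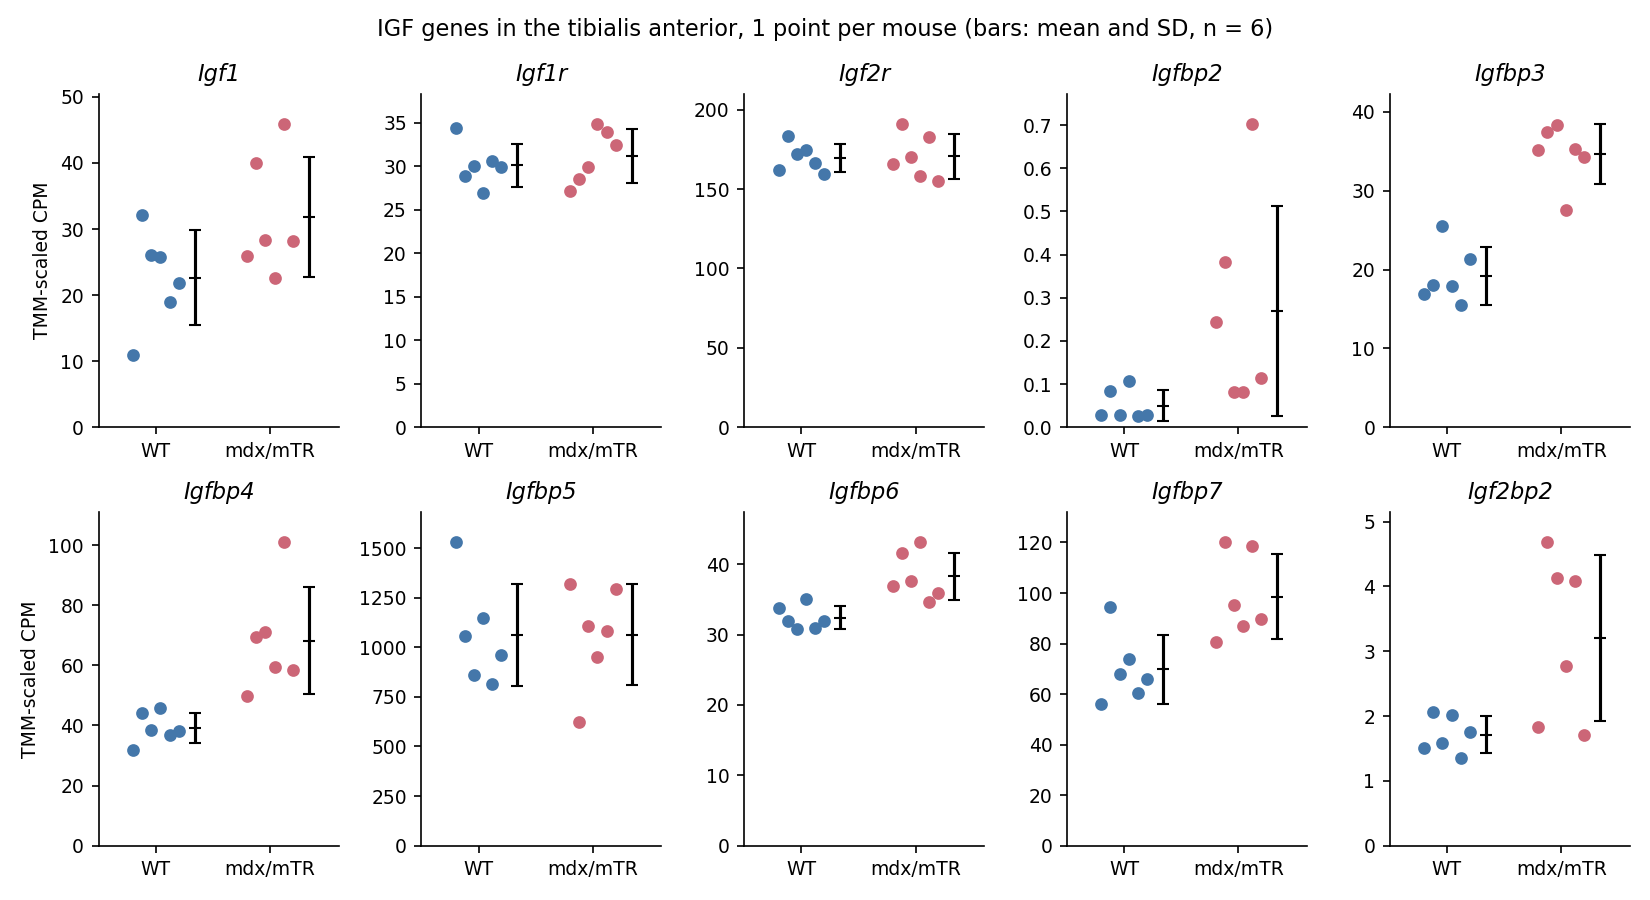
TMM-scaled CPM (vertical axis, from 0, a separate scale for each gene) of the 10 genes in 6 WT mice (blue) and 6 mdx/mTR mice (red), 1 point per mouse in the order of replicate numbers, with the mean and SD in black. For Igfbp3 and Igfbp4 every red point lies above every blue point, and for Igf1r, Igf2r and Igfbp5 the points of the groups intermingle.

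Igf1 (chromosome 10, 87858265 to 87937042, plus strand, mm10; 4 exons in the longest coding transcript) encodes the ligand. In WT its level was 11.002 CPM at the lowest, 23.8 at the median and 32.1 at the highest, and in mdx/mTR it was 22.6, 28.3 and 45.9 CPM. Only 2 mdx/mTR mice, replicates 2 and 5 at 39.97 and 45.9 CPM, stood above every WT mouse, and WT replicate 1 stood below all others. The means were 22.6 ± 7.22 and 31.8 ± 9.06 CPM (SD, n = 6 each). The log2 fold change was 0.49 ± 0.22 (SE; 95% interval 0.01 to 0.97; edgeR unadjusted p 0.0454, adjusted p 0.0846), so the gene did not pass the threshold over all genes. The authors' deposited table gives 0.44 for Igf1 with an adjusted p of 0.0541. Over the 23 alternatives the log2 fold change stayed between 0.35 and 0.66. In 3 of them edgeR's adjusted p fell under 0.05, at 0.0373 without WT replicate 2, 0.0389 with library totals alone and 0.0437 with a replicate block. The labels do not say whether replicate numbers pair mice.

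Neither receptor gene passed the test, and the intervals of both were narrow. Igf1r (chromosome 7, 67952827 to 68233668, plus strand; 21 exons) ran from 26.9 through a median of 29.98 to 34.4 CPM in WT and from 27.2 through 31.2 to 34.9 CPM in mdx/mTR. The groups overlapped over nearly their whole range. Its change on the log2 scale was 0.05 ± 0.07 (SE; 95% interval -0.11 to 0.20; edgeR adjusted p 0.603). Igf2r (chromosome 17, 12682406 to 12769664, minus strand; 48 exons) is the receptor that clears IGF2. It ran from 159 through 169 to 183 CPM in WT and from 155 through 168 to 191 CPM in mdx/mTR, and mdx/mTR mice held both the lowest and the highest place. Its log2 fold change was 0.01 ± 0.06 (SE; 95% interval -0.12 to 0.13; edgeR adjusted p 0.912). The noncoding gene Airn lies antisense to Igf2r, shares 0 exonic bases with it and was not called either (log2 fold change 0.22, edgeR adjusted p 0.0940).

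Among the binding proteins, Igfbp3 had the smallest p. Igfbp3 (chromosome 11, 7206086 to 7213923, minus strand; 5 exons) encodes the main IGF carrier of blood plasma, which tissues also make locally. In WT it was 15.5 CPM at the lowest, 18.0 at the median and 25.6 at the highest, and in mdx/mTR 27.5, 35.2 and 38.4 CPM. All 6 mdx/mTR mice lay above all 6 WT mice, and 5 of the 6 were between 34.2 and 38.4 CPM. The log2 fold change was 0.85 ± 0.11 (SE; 1.80-fold; edgeR adjusted p 4.9e-05). It was also the only member to pass when a log2 change of at least 0.5 was asked for (edgeR, adjusted p 0.0118).

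Igfbp4 (chromosome 11, 99041244 to 99054392, plus strand; 4 exons) encodes a binding protein mostly known to inhibit IGF action until the protease PAPP-A cleaves it. It was 31.8, 38.2 and 45.9 CPM at the lowest, median and highest WT mouse, and 49.97, 64.3 and 101 CPM in mdx/mTR. The groups did not overlap, and mdx/mTR replicate 5 at 101 CPM stood well above the next mouse at 71.2 CPM. The log2 fold change was 0.80 ± 0.14 (SE; 1.74-fold; edgeR adjusted p 5.4e-04), and 0.65 without mdx/mTR replicate 5 (adjusted p 2.2e-04). Of the 50-base stretches in its longest coding transcript, 2.0% occur in transcripts of other genes.

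Igfbp7 and Igfbp6 rose less. Igfbp7 (chromosome 5, 77349240 to 77408041, minus strand; 6 exons) encodes a protein of vessel walls and matrix that binds IGFs only weakly. It was 56.3, 66.9 and 94.6 CPM at the lowest, median and highest WT mouse and 80.7, 92.4 and 120 CPM in mdx/mTR. The overlap came from WT replicate 2 alone, which lay above 3 mdx/mTR mice. Its log2 fold change was 0.50 ± 0.13 (SE; 1.41-fold; edgeR adjusted p 0.0059). Its exons share 85 bases with Polr2b on the other strand, and since strand handling is not given in the sources used here, a small part of its counts may belong to that gene. Polr2b itself was not called (log2 fold change -0.07, edgeR adjusted p 0.215).

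Igfbp6 (chromosome 15, 102144362 to 102149511, plus strand; 4 exons) encodes a binding protein that prefers IGF2 over IGF1. Its WT values were tight, at 30.8, 31.9 and 35.02 CPM, and in mdx/mTR it was 34.6, 37.3 and 43.1 CPM. The groups met at a single pair of mice, WT replicate 4 and mdx/mTR replicate 5. The change on the log2 scale was 0.24 ± 0.06 (SE; 1.18-fold; edgeR adjusted p 0.0044), the smallest of the 5 called rises.

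Igfbp5 (chromosome 1, 72857932 to 72874884, minus strand; 4 exons) encodes the binding protein best known in differentiating muscle cells and binds matrix as well as IGFs. It was 816, 1009 and 1529 CPM at the lowest, median and highest WT mouse and 624, 1097 and 1321 CPM in mdx/mTR. A WT mouse, replicate 1, had the highest value and an mdx/mTR mouse, replicate 2, the lowest. The means were 1062 ± 259 and 1064 ± 256 CPM (SD, n = 6 each), with a log2 fold change of 0.00 ± 0.18 (edgeR adjusted p 0.990). The 95% interval of -0.38 to 0.39 is wide, so a change of the size seen for Igfbp6 would not have been detectable for this gene.

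Igfbp2 (chromosome 1, 72824503 to 72852474, plus strand; 4 exons), which encodes a binding protein abundant in fetal tissues, was too low for the fit. It lies 5457 bases from Igfbp5 on the opposite strand. WT mice had 11 counts in all (1 to 4 per library) and mdx/mTR mice 86 (3 to 33 per library). The highest values were those of mdx/mTR replicates 5, 2 and 1, at 0.703, 0.384 and 0.244 CPM, while the other mdx/mTR mice, at 0.0818 to 0.115 CPM, overlapped the WT range of 0.0261 to 0.106 CPM. The difference of the means was 0.218 CPM (two-sided exact permutation p 0.0130, where the smallest possible is 0.00216). With no filter on low counts, edgeR gave a log2 fold change of 2.37 ± 0.64 (SE; adjusted p 0.0088). The authors' deposited table gives a smaller log2 fold change, 1.26 ± 0.37 (SE), with no adjusted p and the status Low. The 6 markers of regenerating fibres summed to 1079 to 1352 CPM in the same 3 mdx/mTR mice and to 406 to 746 CPM in the other 3. On average most of this sum was Actc1, with a mean of 697 CPM in mdx/mTR against 74.4 CPM for Myh3, the next marker. The sums of 8 macrophage markers were highest in replicates 5 and 2 (396 and 260 CPM) but lowest in replicate 1 (149.6 CPM). The part of these markers in the Igfbp2 values was not tested.

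Igf2bp2 (chromosome 16, 22059009 to 22163299, minus strand; 16 exons) had the largest fold among the tested members and, in mdx/mTR, the widest relative spread. It was 1.36, 1.67 and 2.07 CPM at the lowest, median and highest WT mouse and 1.70, 3.43 and 4.68 CPM in mdx/mTR. The mdx/mTR mice differed among themselves: replicates 1 and 6, at 1.83 and 1.70 CPM, lay inside the WT range, and the other 4 at 2.78 to 4.68 CPM lay above it. The log2 fold change was 0.90 ± 0.25 (SE; 1.86-fold; edgeR adjusted p 0.0090), from 0.75 to 1.03 when any single mouse was left out, with adjusted p from 0.0020 to 0.0230. Replicates 1 and 6 also had the lowest sums of 8 macrophage markers among mdx/mTR mice, 149.6 and 175 CPM against 210 to 396 CPM. They also had the lowest sums of fibro-adipogenic and fibroblast markers (3711 and 3616 against 3883 to 5596 CPM) and the highest of mature fast fibre markers (135486 and 128120 against 97207 to 118323 CPM). The sums of regenerating fibre markers, on average mostly Actc1, did not divide the mice in this way. They were 1112 and 746 CPM in replicates 1 and 6, 406 and 527 CPM in replicates 3 and 4, and 1079 and 1352 CPM in replicates 2 and 5. Setting replicates 1 and 6 apart was itself based on the Igf2bp2 values. The sums of the other marker lists did not set these mice apart. Tendon markers summed to 285.6 CPM in replicate 6, above the 242.8 CPM of replicate 4. Satellite cell and myoblast markers summed to 71.7 CPM in replicate 1 and 71.3 CPM in replicate 3. Adipocyte markers were lowest in replicate 5, at 17.6 CPM. The part of any of these markers in the Igf2bp2 values was not tested.

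**Figure D2:**
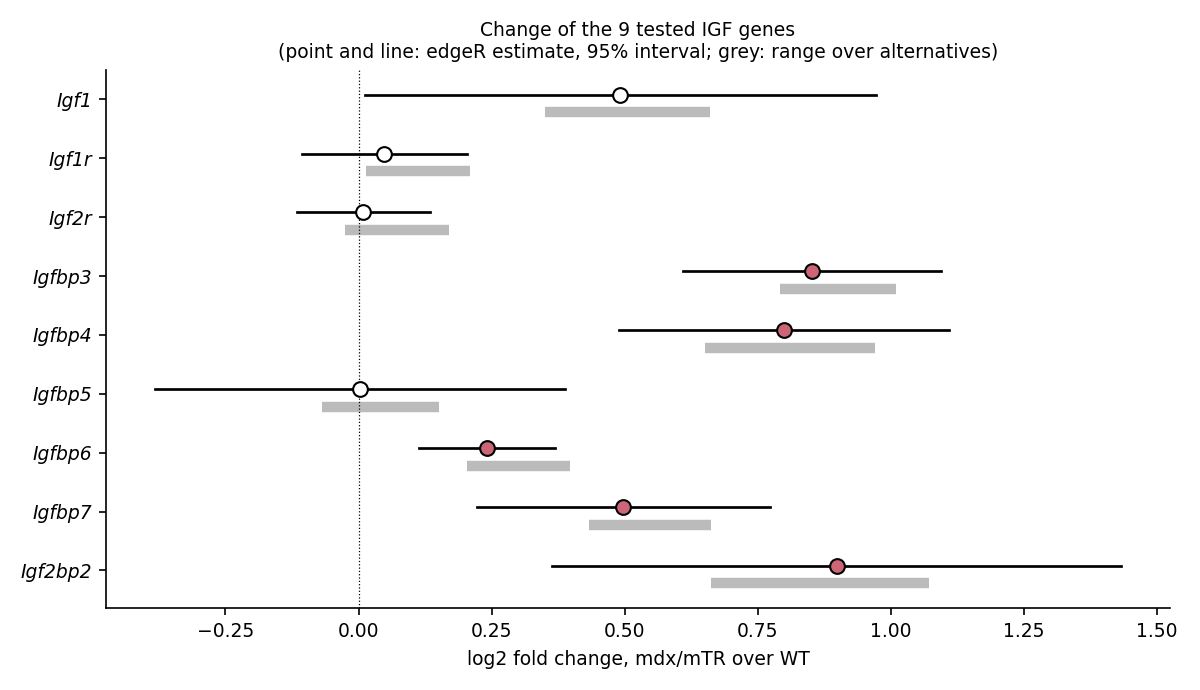
Change between the groups (horizontal axis, log2 of mdx/mTR divided by WT) for the 9 tested genes, with edgeR's estimate (red where the adjusted p was under 0.05, white otherwise), its 95% interval (black line) and the range over 23 alternatives (grey bar). The 5 red points, of Igfbp3, Igfbp4, Igfbp6, Igfbp7 and Igf2bp2, have intervals above 0, and the interval of Igfbp5 is the widest of the 3 genes centred near 0.

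Whole muscle was measured, so more cells of a type and more RNA per cell cannot be told apart. Of 8 markers of fibro-adipogenic progenitors and fibroblasts, the connective tissue cells of muscle, 7 rose and 0 fell, and their summed level was 1781 to 2507 CPM in WT and 3616 to 5596 CPM in mdx/mTR. Of 8 macrophage markers 7 rose, with sums of 66.98 to 112 CPM and 149.6 to 396 CPM. Of 6 regenerating fibre markers 4 rose among those that passed the filter on low counts in both groups, and Tmem8c (13 counts in WT, 3176 in mdx/mTR) and Chrng (15 and 1228) passed it only through mdx/mTR. The 6 summed to 198 to 474 CPM and 406 to 1352 CPM. Most of these sums was Actc1, with means of 331 and 697 CPM and groups that overlapped. Endothelial markers moved the other way, 4 of 6 lower, with sums of 561 to 711 CPM and 432 to 535 CPM, although with library totals alone 2 of the 6 were lower. Markers of hepatocytes, the source of circulating IGF1, were at or near 0: Ttr and Serpina1a had 0 counts in every library, and Alb had 5 counts in WT and 3 in mdx/mTR. The 6 satellite cell and myoblast markers summed to 51.1 to 68.2 CPM and 59.7 to 96.2 CPM, with 3 higher and 1 lower. The part of these cell types in the changes of the IGF genes was not tested.

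To compare levels between genes, CPM were divided by the length of the longest coding transcript. In WT the order per kilobase was Igfbp5 (177 ± 43.2, SD), Igfbp7 (58.2 ± 11.3), Igfbp6 (29.1 ± 1.51), Igf2r (19.1 ± 1.0), Igfbp4 (10.2 ± 1.33), Igfbp3 (7.94 ± 1.51), Igf1 (3.21 ± 1.02), Igf1r (2.64 ± 0.216), Igf2bp2 (0.439 ± 0.0731) and Igfbp2 (0.0381 ± 0.0273). The ranges of neighbours in that order overlapped over the 6 mice for Igfbp4 and Igfbp3 and for Igf1 and Igf1r. The order of means was the same in mdx/mTR, where Igf2r (19.2 ± 1.57) overlapped Igfbp4 (17.8 ± 4.65), Igfbp4 overlapped Igfbp3 (14.3 ± 1.58), and Igf2bp2 overlapped Igfbp2. The ranges of Igf1 (4.51 ± 1.29) and Igf1r (2.73 ± 0.271) did not overlap there. The order depends on the transcript taken. With the median coding transcript length, the mean of Igfbp4 stood above Igfbp6 and Igf2r in WT (52.8 ± 6.89) and above Igfbp7 too in mdx/mTR (91.95 ± 24.0). In mdx/mTR the range of Igfbp4, 67.35 to 136, overlapped those of Igfbp5 and of Igfbp7 (69.6 to 104). Igf1 (16.6 ± 5.28 and 23.3 ± 6.63) had a higher mean than Igfbp3 (9.30 ± 1.77 and 16.8 ± 1.85) in both groups, but their ranges overlapped in both.

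The makeup of binding protein RNA was described from the same values, with no test since it is a sum over chosen genes. Igfbp5 made up 62.0% ± 5.87 of the 6 genes' summed level per kilobase in WT (SD, n = 6) and 53.7% ± 9.06 in mdx/mTR (SD, n = 6). The ranges overlapped, 57.8% to 73.3% in WT and 37.8% to 63.2% in mdx/mTR, and the lowest share, 37.8% in mdx/mTR replicate 2, came with the lowest Igfbp5 level. Igfbp7 made up 20.9% ± 4.16 and 25.5% ± 6.08, Igfbp6 10.5% ± 1.20 and 10.7% ± 2.07, Igfbp4 3.69% ± 0.654 and 5.49% ± 1.39, and Igfbp3 2.89% ± 0.806 and 4.42% ± 0.662. The shares depend on the lengths: with the median coding transcript length, Igfbp4 made up 16.3% in WT and 22.6% in mdx/mTR. The sum without Igfbp5 was 92.6 to 127 CPM per kilobase in WT and 128 to 171 in mdx/mTR, without overlap, whereas with Igfbp5 it was 230 to 347 and 275 to 352. Without Igfbp5 the sum is almost wholly the 4 binding protein genes called higher, so its rise follows from those calls. Per 1000 units of all 6 binding proteins, Igf1 stood at 11.7 ± 3.84 in WT and 13.99 ± 4.40 in mdx/mTR, with ranges of 4.49 to 15.1 and 10.5 to 20.6 that overlapped. Without Igfbp5 in the sum it stood at 29.9 ± 6.999 in WT and 29.9 ± 5.10 in mdx/mTR. These ratios also depend on the lengths and were computed with the longest coding transcripts only. The longest and median lengths are 7052 and 1367.5 bases for Igf1 and 3831 and 742 bases for Igfbp4.

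**Figure D3:**
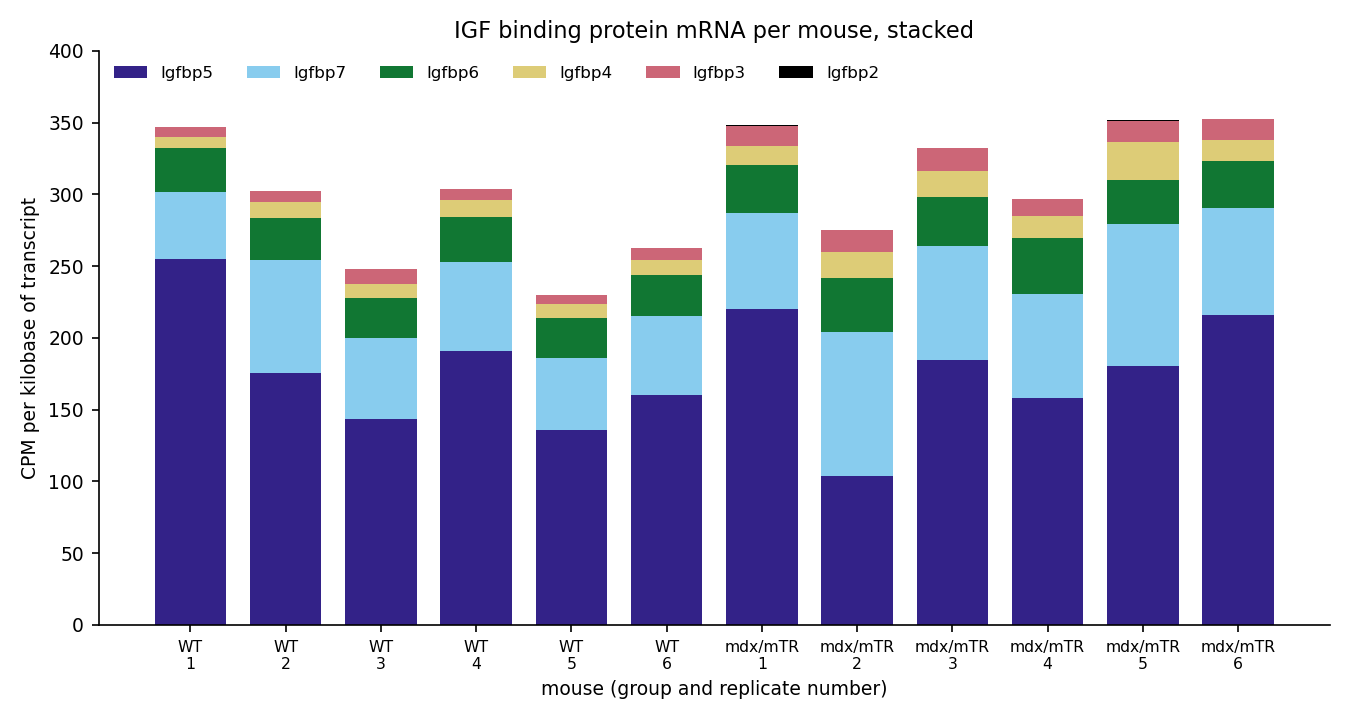
Level per kilobase of transcript (vertical axis, CPM divided by the length in kilobases of the longest coding transcript) of the 6 binding protein genes, stacked for each of the 6 WT and 6 mdx/mTR mice. Igfbp5 is the largest block in every mouse, at 37.8% to 73.3% of the bar, and the part above it is taller in all 6 mdx/mTR mice (128 to 171) than in all 6 WT mice (92.6 to 127). That part is almost wholly the 4 genes called higher, so its height follows from those calls.

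Relations between members were computed over the mice of each group, and 0 of the 72 passed after adjustment. With 6 mice, the smallest possible exact permutation p is too large for any 1 relation to pass alone over 72. The count of 0 therefore does not show that members are unrelated. Over the 6 mice of a group, log2(CPM + 0.5) of Igf1 and Igfbp7 had a Pearson r of 0.849 in WT (exact permutation p 0.0056) and 0.931 in mdx/mTR (exact permutation p 0.0417), with Spearman rho of 0.943 (exact permutation p 0.0167) and 0.886 (exact permutation p 0.0333). Without the 2 mice farthest from the median of Igf1, r was 0.887 in WT and 0.470 in mdx/mTR, so the latter rests on replicates 2 and 5. Adjusted over the 72 relations computed (36 pairs of genes in each group), the p of r was 0.200 in WT and 0.271 in mdx/mTR, and that of rho was 0.267 in both. Igf1r and Igfbp4 had an equally small exact permutation p in WT (0.0056, adjusted 0.200) with r of -0.967, and in mdx/mTR r was 0.420 (exact permutation p 0.428). Of the 72, 11 had an unadjusted exact permutation p of r under 0.05.

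The genes whose pattern over the 12 mice was most like each member's, out of 13937, are given as a description. For Igfbp4 they were Mob3a (Pearson r 0.988) and Mrc1 (0.987), the latter a mannose receptor gene of macrophages. For Igfbp7 they were Cacnb3 (0.979) and Prcp (0.978), for Igfbp3 Lpin3 (0.973) and Fam49b (0.950), and for Igf1 Cttnbp2nl (0.973) and Ednrb (0.945). Igf2bp2 was most like Smc2 (0.972), which encodes a condensin subunit, and Pltp (0.964). Igf2r was most like AF357359 (0.939) and Meg3 (0.906), Igf1r like Rplp1 (0.933), which encodes a ribosomal protein, Igfbp6 like Psmb5 (0.938) and Reep2 (0.908), and Igfbp5 like Marf1 (0.910) and Hcn4 (0.866). For the called members these values share the difference between the groups. With the group means removed, Smc2 (0.958) and Pltp (0.944) were again first for Igf2bp2. Highest for other called members and for Igf1 were Pdia4 (0.977) and Iqgap1 (0.968) for Igfbp4, Pea15a (0.967) for Igfbp7, Parva (0.966) and Cttnbp2nl (0.965) for Igf1, and Kcnip4 (0.945) and Map4k2 (0.901) for Igfbp3. The members with little change had Rhoc (0.962) and Vash1 (0.942) for Igf2r, Rplp1 (0.938) for Igf1r, and Anapc11 (0.911) and Marf1 (0.911) for Igfbp5, and Igfbp6 had Arhgef18 (0.833) and Psmb5 (0.828).

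The other genes of the system were read from 7 lists, beside 25.0% of all genes tested called higher and 23.4% lower. Of the 6 other ligand, receptor and carrier genes 3 could be tested, of which 1 rose and 2 fell. Igf2, the second ligand, rose from 21.3 ± 2.81 to 122 ± 90.7 CPM (SD, n = 6 each; a log2 change of 2.52 with an SE of 0.34 and an edgeR adjusted p of 6.4e-05). The highest mdx/mTR mouse was replicate 5 at 300.1 CPM, which was also highest for Igf1, Igfbp2 and Igfbp4, and without it the log2 fold change was 2.02. Insr, the insulin receptor gene, fell from 173 ± 7.99 to 131 ± 7.54 CPM (-0.40 ± 0.05 SE, edgeR adjusted p 2.7e-05), while Igf1r, its closest relative, was not called. Igfals, the acid-labile subunit that joins IGFBP3 or IGFBP5 in the plasma complex, fell from 5.75 ± 0.960 to 2.10 ± 0.693 CPM (-1.46 ± 0.20 SE, edgeR adjusted p 6.6e-05). Igfbp1 had 0 counts in every library, against a floor of 3 counts or 0.0460 to 0.0837 CPM.

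Among the 5 tested genes for proteases of binding proteins and their inhibitors 1 rose, Adam12 (2.34, edgeR adjusted p 0.0030). Pappa, whose product cleaves IGFBP4, was not called (0.32, edgeR adjusted p 0.282), nor was Htra1 (-0.03, edgeR adjusted p 0.837), whose sign turned in 5 of 23 alternatives. Of 6 genes around Igf2bp2 3 could be tested, of which 1 was called higher and 1 lower. Its paralog Igf2bp3 fell (-0.39, edgeR adjusted p 0.0089), and this call was lost with library totals alone (adjusted p 0.0781). The other paralog Igf2bp1 had 2 counts, both in mdx/mTR replicate 2. Lin28a, an RNA-binding protein of the same regulatory axis, had 0 to 3 counts per library in WT and 13 to 50 in mdx/mTR. It is the called rise of this list but passed the filter on low counts only through mdx/mTR, so the call is no support. Hmga2, a known activator of Igf2bp2 that was singled out after its values were seen, had 0 to 2 counts per library in WT and 6 to 64 in mdx/mTR and was removed by that filter. It was called higher by edgeR with no filter (adjusted p 2.3e-04) and by DESeq2 (adjusted p 4.8e-07). Since nearly all counts of Hmga2 lay in mdx/mTR and it was picked for its values, these calls are no support either. The part of Hmga2 in the Igf2bp2 values was not tested.

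Over all genes tested 25.0% were higher and 23.4% lower, the shares beside which the following list counts stand. In the growth hormone axis 3 of 7 genes rose and 2 fell. Its smallest p-values were those of Jak2, the kinase of the growth hormone receptor, which fell (-0.66, edgeR adjusted p 6.6e-05), and Stat5a, which rose (0.44, edgeR adjusted p 1.8e-04). The receptor gene Ghr was not called (-0.17, edgeR adjusted p 0.154). Of 17 receptor adaptor and PI3K-AKT genes 3 rose and 5 fell, with the adaptors Shc1 (0.40, edgeR adjusted p 6.2e-04) and Irs1 (-0.39, edgeR adjusted p 8.9e-04) first, and of 13 mTOR genes 1 rose and 6 fell, led by Tsc2 (-0.31, edgeR adjusted p 5.5e-05) and Rheb (-0.33, edgeR adjusted p 3.5e-04). With library totals alone the PI3K-AKT counts were 5 higher and 2 lower and the mTOR counts 3 higher and 3 lower. The mannose 6-phosphate sorting genes, which serve the same transport as Igf2r, had 3 of 8 higher and 2 lower, with Gga2 (0.64, edgeR adjusted p 3.7e-05) and Gga1 (-0.28, edgeR adjusted p 0.0011) first. With library totals alone they were 4 higher and 0 lower.

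**Figure D4:**
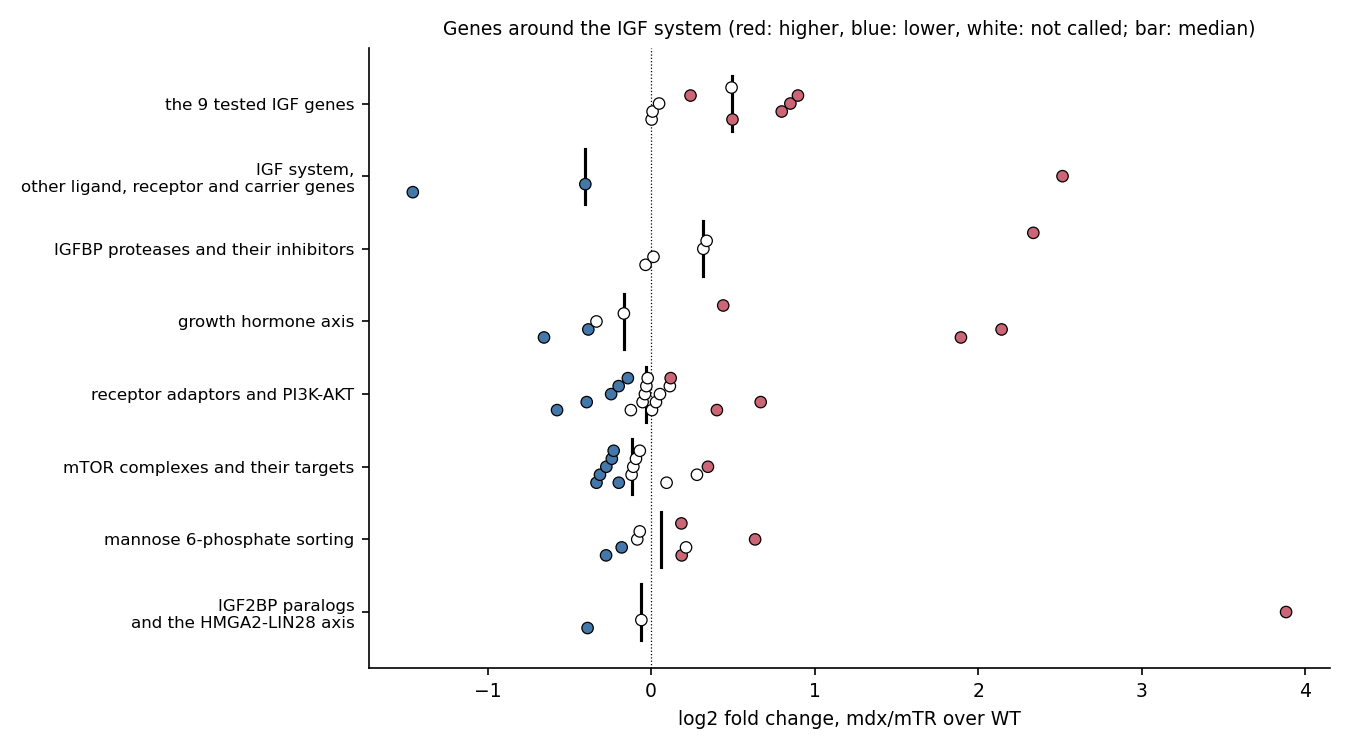
Change between the groups (horizontal axis, log2 of mdx/mTR divided by WT) for the tested genes of 8 groups (rows), with genes called higher in red, called lower in blue and not called in white, and the median of each row as a black bar. The 9 tested IGF genes have a median of 0.49, and the medians of the rows of PI3K-AKT and mTOR genes are -0.03 and -0.12.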

How the data were processed

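Total RNA of the tibialis anterior was sequenced in 6 WT and 6 mdx/mTR mice. The submitters' processing notes name the mm10 build, FastQC, STAR and DESeq2, without versions, and strand handling and annotation are not given in the sources used here. The authors deposited whole-number counts per gene symbol (24421 entries, 0 columns left unmatched). The authors' deposited table of their comparison lists for each gene a log2 fold change with its error, raw and adjusted p-values, a score (the test statistic) and the mean normalized signal over all samples, per the file headers.

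Counts were tested with edgeR 4.0.16 in R 4.3.3: filterByExpr (13937 genes), TMM scaling, group as the only term, a quasi-likelihood test and Benjamini-Hochberg adjustment over all genes at 0.05. The SE is the size of the log2 fold change divided by the square root of F. Alternatives were other filters and scalings, DESeq2 1.42.0, limma-voom (limma 3.58.1) plain or weighted by sample, replicate number as a block, single mice left out, a stricter threshold and a minimum effect. The procedure was tested on simulated counts. Correlations used scipy 1.17.1 (exact permutation, smaller tail doubled).

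Coordinates, exons and lengths came from GENCODE M21 (GRCm38, the assembly of mm10) and upstream windows from RefSeq. A floor of 3 counts covers counting error only. Replicate pairs differed by more than sampling noise (chi-square per degree of freedom 9.14 to 128), so none was counted as a duplicate. The 10 members and all lists were chosen with earlier results of these data known. All members were named, with the 2 smallest p-values of each list, 9 fixed genes, and the 2 genes most correlated with each member, of which some are not reported here. Other lists of markers, whose counts are not given above, were also tested in edgeR. Tendon had 4 of 5 higher, Schwann cell 4 of 5 lower, and pericyte and smooth muscle 4 of 6 lower. Other leukocytes had 2 of 3 tested higher and mature fibres 2 of 6 lower. Adipocytes (3 tested) and red blood cells (1 tested) had 0 called.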

Additional observations from a re-analysis of the deposited data

Results flagged for a closer look

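Within each group of 6 mice, the gap between the highest or lowest mouse and its neighbour was set against the range of the group, for the members and the other genes named. The ratio exceeded 0.625 in 5 of 53 groups of values, where chance gives 2.65, and in 0 groups of the 10 members. In mdx/mTR replicate 5, the level of Igf2 was 300.1 CPM (the rest of its group, 71.4 to 136 CPM), Adam12 at 11.2 against 1.31 to 4.74 CPM, and Shc1 at 27.2 against 20.7 to 22.1 CPM. In mdx/mTR replicate 4, Stat5a stood at 31.2 CPM against 25.1 to 27.1 CPM. In WT replicate 2, Igf2 stood at 26.9 CPM, with the rest of WT at 18.9 to 20.9 CPM.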

How the results depend on the processing

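The 5 called members kept their direction under all 23 alternatives and their call under all but a test for a log2 change of at least 0.5: there 1 member passed (higher), with 1368 genes in all (1012 higher, 356 lower) and 6 genes of the pathway lists (5 higher, 1 lower). With library totals alone, which shifts the median of all genes on the log2 scale from 0.01 to 0.17, 5596 genes were higher and 1560 lower, and the lists had 18 higher and 8 lower in place of 13 (Lin28a included) and 18. Genes near 0 changed sign. Igfbp5 was -0.0032 with median-of-ratios scaling, -0.0065 in DESeq2, -0.0035 in limma-voom and -0.0045 with a replicate block, and -0.0687 to 0.135 without single mice. Igf2r was -0.0013 in DESeq2 and -0.0208 with sample weights, and -0.0263 to 0.0349 without single mice. Htra1 was 0.0065 under upper quartile scaling, 0.125 on library totals alone, and -0.0790 to 0.0843 without single mice. The Igfbp5 share difference (mdx/mTR minus WT, -8.30 percentage points) was -10.2 to -5.11 without single mice, the smallest without mdx/mTR replicate 2. Same-numbered mice of the groups had correlated deviations (over 0.1) in 2 of 6 pairs, replicates 1 and 2 (0.354 and 0.285). The pairs numbered 3 to 6 had negative correlations, -0.0283, -0.155, -0.134 and -0.0436. Whether mice are paired by number is not known, as the labels do not say. A replicate block left 6420 genes called, among them 6 members, Igf1 included. Igfbp2, at 1 to 33 counts per library, is limited by depth.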
